A study of Mus musculus with 16 samples.

Results

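Transcripts of 10 peptide genes of cortical interneurons were followed across 16 libraries of mouse cerebral cortex. The genes are Sst, Vip, Npy, Cck, Crh, Crhbp, Tac1, Tac2, Cort and Pdyn. They were picked by name as a family, and each matched 1 of the 55573 gene IDs in the count table. Reads were detected for each of the 10 in all 16 libraries, the lowest count being 35 for Cort, and all 10 passed the filter on low counts in every comparison. By the gene annotation, all are protein-coding and none shares exon bases with another gene on either strand.

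The libraries fall into 4 groups of 4 from mice of around postnatal day 180, all labelled C57BL/6 and untreated. Aifm1-KI carries a knock-in allele written as Aifm1 (R200 del), and Aifm1-WT holds its littermate wild types. Hq-mut is the Harlequin mutant of the stock B6CBACa Aw-J/A-Aifm1Hq/J, a second mutation of Aifm1, and Hq-WT holds the littermate wild types of that stock. Aifm1 encodes apoptosis-inducing factor, a mitochondrial flavoprotein needed for assembly of the respiratory chain. Neither allele is driven by a cell-type promoter, and the tissue is whole cortex, so fewer cells of a type and less RNA per cell cannot be told apart. The labels do not say that each library is a separate animal, and p-values therefore measure the spread between these libraries, which may be technical.

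Neuropeptides are made as larger precursors, cut and in some cases amidated in dense-core vesicles. Interneurons release them alongside the inhibitory transmitter GABA, to act on G protein-coupled receptors. In cortex, several interneuron classes are told apart by such genes, while the class marked by parvalbumin is not. Sst marks cells that contact dendrites, Vip marks cells that mainly inhibit other interneurons, and Cck marks a class of basket cells, although many pyramidal neurons also make Cck. Several of the peptides are not particular to cortex: Tac1 and Pdyn are made by projection neurons of the striatum, which lies directly beneath it.

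Total counts ran from 10671580 to 32551594 per library, so a count of 0 would allow up to 0.0881 to 0.282 CPM (read counts scaled to a common library size with TMM factors). Aifm1 itself was at 24.01 ± 0.935 CPM (SD, n = 4) in Hq-WT and 3.29 ± 0.815 CPM (SD, n = 4) in Hq-mut, a log2 fold change of -2.89 (SE 0.17, adjusted p = 0.001011, edgeR). The wild-type level of the other line was 22.7 ± 0.728 CPM (SD, n = 4) in Aifm1-WT, beside 23.9 ± 1.90 CPM (SD, n = 4) in Aifm1-KI (adjusted p = 0.679, edgeR). Striatum markers stood apart in several mutant libraries. Over 10 such genes, the mean log2 CPM of Aifm1-KI 1 to 4 was 3.72, 4.50, 2.94 and 4.41, and Aifm1-WT spanned 2.82 to 3.02. In Hq-mut 1 to 4 it was 3.63, 2.88, 5.25 and 3.24, against 2.75 to 3.33 in Hq-WT. Cortical excitatory neuron markers were lowest in Aifm1-KI 2 and 4, at a mean log2 CPM of 5.41 and 6.17, against 6.60 to 6.89 in the other libraries. Interneuron identity genes, 27 in number, were detected throughout, at 4.38 to 4.72 in all libraries other than Aifm1-KI 2 and 4, which were at 5.12 and 4.90.

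Per kilobase of annotated exon, Sst and Cck were the most abundant members, with means over the 16 libraries of 194 and 183 CPM per kb. Npy followed at 100.6 CPM per kb. These 3 held the first 3 places in all 16 libraries, with Sst and Cck exchanging the first and second place and Npy always in the third. Then came Vip at 16.6, Crhbp, which encodes a secreted protein that binds corticotropin-releasing hormone, at 10.9, and Pdyn, the precursor of the dynorphins, at 9.07 CPM per kb. Vip and Crhbp each ranked between 4 and 6 depending on the library, and Pdyn between 5 and 7. The lowest members were Crh (corticotropin-releasing hormone) at 5.58, Cort (cortistatin, a relative of somatostatin) at 5.32, Tac1 (the precursor of substance P and neurokinin A) at 3.85 and Tac2 (neurokinin B) at 3.81 CPM per kb. Their ranks overlapped, from 6 to 10, so the order among these 4 did not hold from library to library. The ratio of the highest to the lowest of the 16 libraries was largest for Tac1, at 5.57, and smallest for Pdyn, at 2.09.

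**Figure D1:**
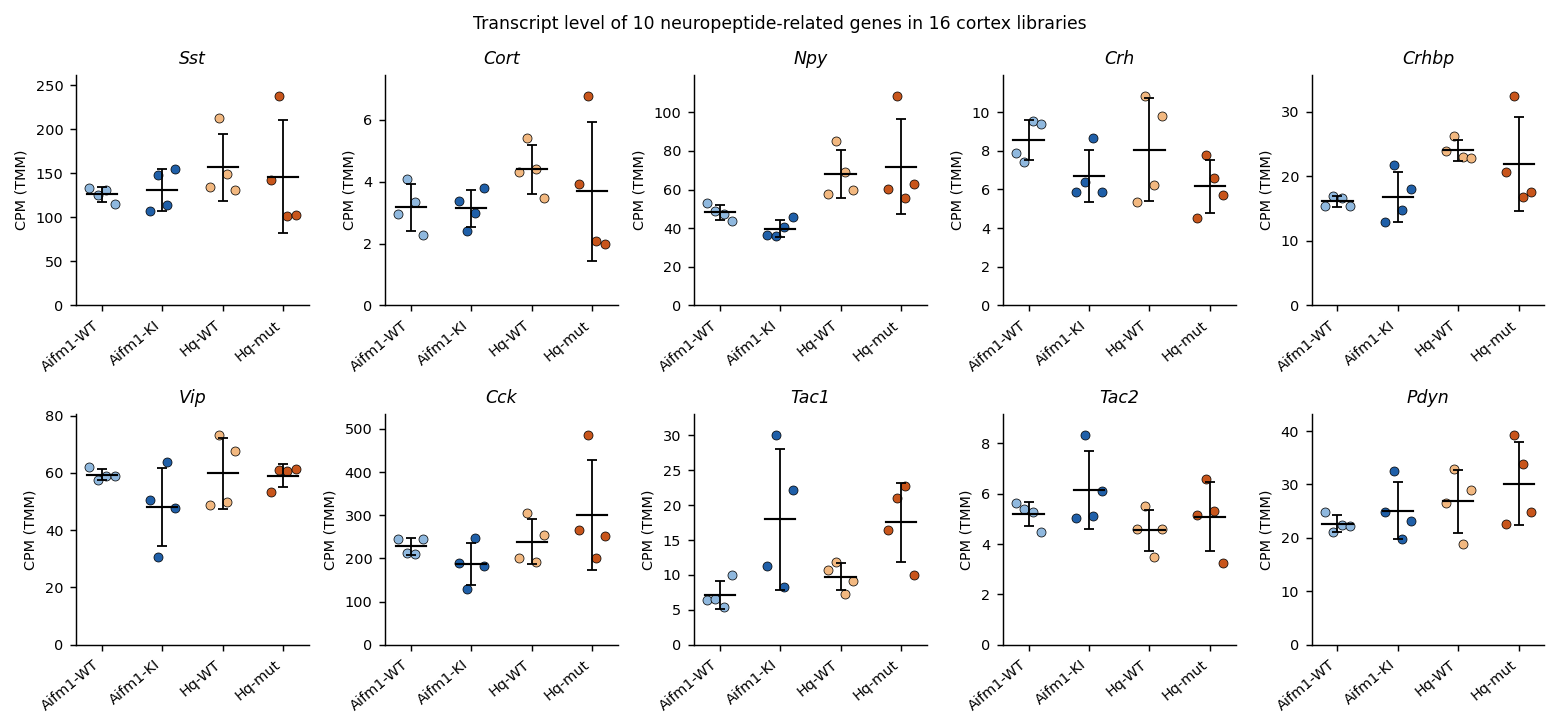
CPM of each of the 10 genes (vertical axes, linear from 0) in the groups Aifm1-WT, Aifm1-KI, Hq-WT and Hq-mut; points are libraries, horizontal bars group means and error bars the SD of 4 libraries. The highest Tac1 point is Aifm1-KI 2 at 30.1 CPM, and the 4 Hq-WT points of Crhbp, at 22.8 CPM or more, lie above all 4 of Aifm1-WT.

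Promoter sequences of 9 of the 10 genes were matched in RefSeq (GRCm38.p6), Pdyn with 2 start sites. Crh had no entry in the promoter set used and was not searched. The matched sequences were searched for the cyclic AMP response element, the motif bound by the activity-regulated factor CREB and first worked out on the somatostatin gene. The palindrome TGACGTCA was present in the 250 bases before the start of Sst alone among the 9 genes searched. It was present in 1.55% of 32851 promoters. The variant TGCGTCA was found before Cort, Cck and Tac1, against 1.75% of all promoters. The core CGTCA, which lies inside both, was found on either strand in 6 of the 10 member promoters and in 17.8% of all promoters. A match is a description of the letters and not a measured binding site. Printed here are stretches of Sst, Cort, Cck and Vip, as examples of the palindrome, the variant and the core; Tac1 and Crhbp, which also matched, are left out because the 100 bases before their RefSeq starts overlap annotated exons. They are written 5′ to 3′ on the gene's strand: 30 bases for Sst (chr16:23890874-23890903, minus strand), and the 100 bases before the start for Cort (chr4:149126764-149126863, minus strand), Cck (chr9:121495695-121495794, minus strand) and Vip (chr10:5639118-5639217, plus strand). Capitals mark the palindrome in Sst, the core in Cort and Cck, and the core read on the opposite strand in Vip. Part of the 100 bases of Sst overlaps an annotated exon too, so 30 are printed. They lie within the annotated span of the gene, 23889573 to 23890958.
Sst: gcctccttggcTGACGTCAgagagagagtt
Cort: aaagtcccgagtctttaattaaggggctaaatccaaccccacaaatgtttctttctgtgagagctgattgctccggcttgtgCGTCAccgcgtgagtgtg
Cck: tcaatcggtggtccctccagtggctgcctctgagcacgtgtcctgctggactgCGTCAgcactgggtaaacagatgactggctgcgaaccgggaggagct
Vip: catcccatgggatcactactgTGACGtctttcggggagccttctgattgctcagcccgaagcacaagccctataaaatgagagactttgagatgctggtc

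The first question was whether the knock-in deletion altered the peptide genes. In Aifm1-KI against Aifm1-WT, none of the 10 passed an adjusted p of 0.05 (edgeR quasi-likelihood test), beside 0% of the 18383 genes tested. DESeq2 and limma-voom called 0 of the 10 as well, although DESeq2 called 82 genes in the whole table. At an unadjusted p under 0.05 there were 3 (Tac1, Npy and Crh), beside 11.4% of all genes. The log2 fold changes ran from -0.365 to 1.37, 5 above and 5 below 0, with a median of 0.0204 beside 0.00547 over all genes. In each of the 10 genes the groups overlapped, beside 2.62% of all genes higher and 2.34% lower without overlap.

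Tac1 (ENSMUSG00000061762, GRCm38 chromosome 6, 7554879 to 7565834, plus strand) had the largest difference. It was at 6.35, 6.55, 5.39 and 10.01 CPM in Aifm1-WT 1 to 4 and at 11.2, 30.1, 8.25 and 22.2 CPM in Aifm1-KI 1 to 4. Aifm1-KI 2 and 4 were far above the wild types, while Aifm1-KI 3 was below the highest of them, so the groups overlapped. The fitted log2 fold change was 1.37 (SE 0.38, adjusted p = 0.368, edgeR), a ratio of 2.58. The knock-in libraries with the highest Tac1 were also those with the highest striatum markers. Drd2, a dopamine receptor of striatal projection neurons, was at 4.28, 12.2, 0.85 and 9.10 CPM in Aifm1-KI 1 to 4 and at 0.793 to 0.93 CPM in Aifm1-WT. Drd1 was at 8.93 to 25.6 CPM against 8.02 to 9.18 CPM, and Adora2a at 2.04 to 16.5 CPM against 1.58 to 2.29 CPM. All 10 striatum markers were above 0 in log2 fold change, with a median of 0.945, none was called, and their summed level spanned 203 to 238 CPM in Aifm1-WT and 238 to 441 CPM in Aifm1-KI. None of the 10 was at 0 in any library. Thalamus markers were also highest in Aifm1-KI 2 and 4, at a mean log2 CPM of 2.80 and 2.43. They were at 1.49 and 1.73 in Aifm1-KI 1 and 3 and at 1.55 to 1.91 in Aifm1-WT, and their part was not tested. With the striatum marker level as a covariate, the Tac1 log2 fold change was -0.05 (adjusted p = 0.996, edgeR). Without Aifm1-KI 2 and 4 it was 0.47 (SE 0.23, adjusted p = 0.818, edgeR). Both alternatives moved the value by over 1.5 times. In all knock-in libraries but Aifm1-KI 3 the marker level was above the Aifm1-WT range, a mean log2 CPM of 2.82 to 3.02. The covariate fit therefore cannot fully separate marker level from genotype, and the part of striatal tissue in the knock-in Tac1 values was not tested.

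**Figure D2:**
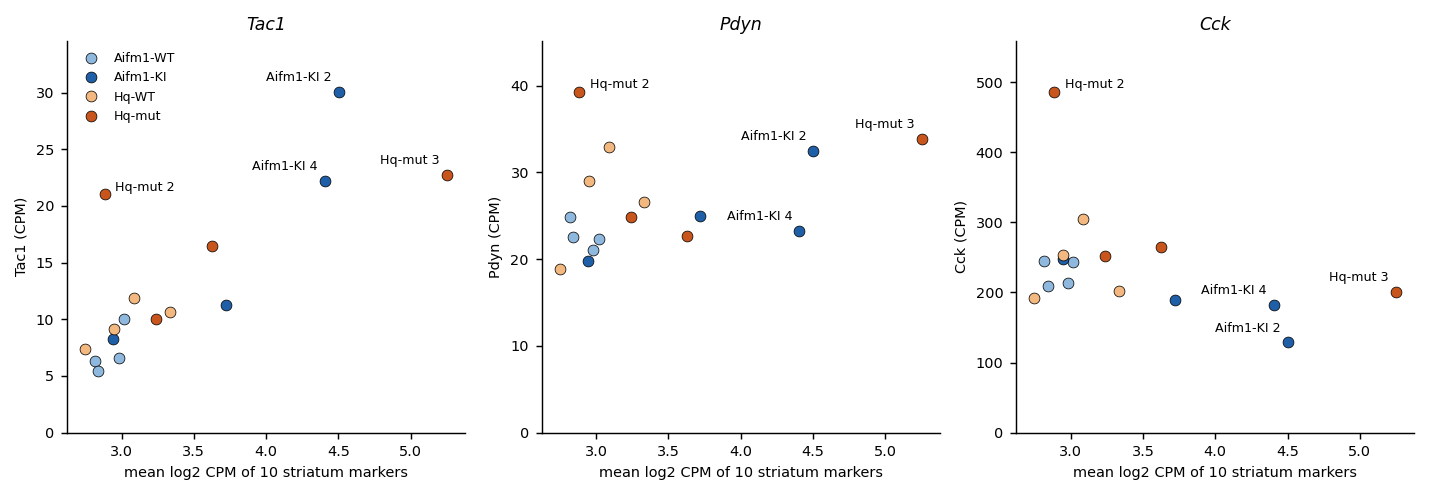
CPM of Tac1, Pdyn and Cck (vertical axes) against the mean log2 CPM of 10 striatum markers (horizontal axes), 1 point per library, coloured by group. Aifm1-KI 2 and 4 and Hq-mut 3 lie to the right, at marker levels of 4.50, 4.41 and 5.25, where Tac1 is high, while the marker level of Hq-mut 2 is 2.88.

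Npy (ENSMUSG00000029819, chromosome 6, 49822710 to 49829507, plus strand) encodes neuropeptide Y, a peptide of neurogliaform and some Sst cells. It was at 52.9, 48.8, 47.2 and 43.8 CPM in Aifm1-WT and at 36.6, 36.0, 40.8 and 45.9 CPM in Aifm1-KI 1 to 4. Of the knock-in libraries, 3 were below every wild type, and Aifm1-KI 4 was within their range. Its log2 fold change was -0.27 (SE 0.09, adjusted p = 0.368, edgeR). Crh (ENSMUSG00000049796, chromosome 3, 19693401 to 19695396, minus strand) was at 7.87, 7.44, 9.52 and 9.39 CPM in Aifm1-WT and at 5.88, 6.37, 8.68 and 5.86 CPM in Aifm1-KI. Only Aifm1-KI 3 reached the wild-type range, and the log2 fold change was -0.36 (SE 0.15, adjusted p = 0.421, edgeR).

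Vip (ENSMUSG00000019772, chromosome 10, 5639218 to 5647617, plus strand) and Cck (ENSMUSG00000032532, chromosome 9, 121489824 to 121495694, minus strand) had their lowest value of all 16 libraries in Aifm1-KI 2. Vip was at 57.6 to 62.0 CPM in Aifm1-WT and at 50.5, 30.7, 63.8 and 47.6 CPM in Aifm1-KI 1 to 4. Cck was at 210 to 245 CPM in Aifm1-WT and at 189, 129, 247 and 182 CPM in Aifm1-KI 1 to 4. In both genes Aifm1-KI 3 was above every wild type and the other 3 knock-in libraries were below, with log2 fold changes of -0.31 (SE 0.17) for Vip and -0.29 (SE 0.16) for Cck (adjusted p = 0.514 and 0.513, edgeR). Without Aifm1-KI 2 both were -0.15, and without Aifm1-KI 3 they were -0.48 and -0.46. The cortical excitatory markers were lowest in Aifm1-KI 2 as well, and their part in these values was not tested.

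Sst, Crhbp and Cort did not separate the groups. Sst (ENSMUSG00000004366, chromosome 16, 23889573 to 23890958, minus strand) was at 134, 125, 131 and 115 CPM in Aifm1-WT and at 107, 148, 114 and 155 CPM in Aifm1-KI 1 to 4. The knock-in libraries lay on both sides of the wild-type range. The log2 fold changes were 0.06 (SE 0.12) for Sst, 0.08 (SE 0.15) for Crhbp and -0.02 (SE 0.21) for Cort. Cort (ENSMUSG00000028971, chromosome 4, 149125034 to 149126763, minus strand) was at 2.29 to 4.08 CPM in Aifm1-WT and 2.41 to 3.81 CPM in Aifm1-KI. Tac2 (ENSMUSG00000025400, chromosome 10, 127724478 to 127731768, plus strand) was at 5.63, 5.38, 5.28 and 4.50 CPM in Aifm1-WT and at 5.03, 8.34, 5.10 and 6.13 CPM in Aifm1-KI, with a log2 fold change of 0.26 (SE 0.17). Pdyn (ENSMUSG00000027400, chromosome 2, 129686565 to 129699844, minus strand) was at 24.8, 21.1, 22.5 and 22.3 CPM in Aifm1-WT and at 24.9, 32.4, 19.7 and 23.2 CPM in Aifm1-KI, with 0.16 (SE 0.13). Without Aifm1-KI 2, these values were 0.067 for Tac2 and 0.0029 for Pdyn. Aifm1-KI 2 held the highest value of its group for Crhbp, Tac2 and Pdyn, at 21.7, 8.34 and 32.4 CPM.

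The second question was the same for the Harlequin mutant, fitted with the replicate number as a block because same-numbered Hq libraries deviated together. None of the 10 passed an adjusted p of 0.05 (edgeR), beside 0.0167% of 17969 genes, and 3 were at an unadjusted p under 0.05 (Tac1, Cck and Crh), beside 7.97%. DESeq2 called 1 of the 10, Tac1, and limma-voom 0. The log2 fold changes were above 0 for 5 members and below 0 for 5, with a median of 0.0217 beside 0.00603 over all genes. In each of the 10 genes the Hq-mut and Hq-WT libraries overlapped, beside 0.707% of all genes higher and 0.974% lower without overlap.

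Tac1 was again the member with the largest difference. It was at 10.7, 11.9, 7.34 and 9.15 CPM in Hq-WT 1 to 4 and at 16.4, 21.02, 22.7 and 10.02 CPM in Hq-mut 1 to 4. Hq-mut 4 was inside the wild-type range and the other 3 were above it. The mutant was higher in 4 of 4 pairs, which held for 8.98% of all genes and no other member, with log2 ratios of 0.62, 0.83, 1.63 and 0.13. No member was lower in 4 of 4 pairs, beside 8.82% of all genes. Over the pairs, the fitted value was 0.78 on the log2 scale (SE 0.20, adjusted p = 0.523, edgeR), a ratio of 1.72. With DESeq2 the value was 0.80 (adjusted p = 0.0498), and without the filter on low counts 0.79 (adjusted p = 9.204e-07, edgeR). Those settings called more of all genes too, 33 of 17969 and 368 of 35998, against 3 of 17969.

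The pair with the largest Tac1 ratio was the one whose mutant library had the highest striatum markers. Drd2 was at 4.72, 1.91, 20.1 and 2.38 CPM in Hq-mut 1 to 4 and at 0.941 to 2.07 CPM in Hq-WT, and Adora2a at 22.0 CPM in Hq-mut 3 against 1.91 to 3.19 CPM in the other Hq-mut libraries. The summed striatum markers were at 197 to 733 CPM in Hq-mut and 243 to 287 CPM in Hq-WT, with 10 of 10 above 0 in log2 fold change and none called. Without pair 3 the Tac1 log2 fold change was 0.53 (adjusted p = 0.941, edgeR), and with the marker level as a covariate it was 0.53 (SE 0.19, adjusted p = 0.798, edgeR). In Hq-mut 2, where the striatum markers were at 2.88 and so within the Hq-WT range, Tac1 was at 21.02 CPM, above every Hq-WT library. The part of striatal tissue in the Tac1 values was not tested beyond these fits.

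**Figure D3:**
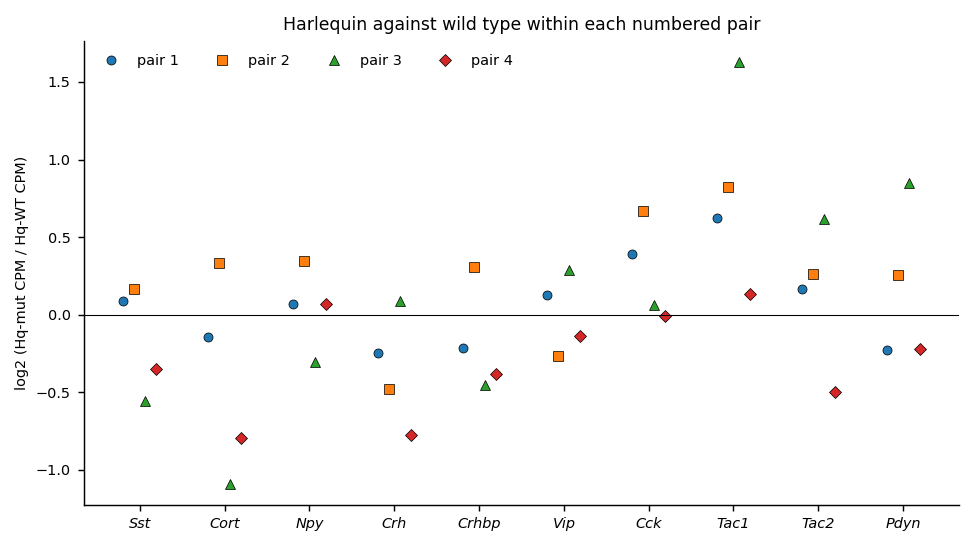
Log2 ratio of the Hq-mut to the Hq-WT library of the same replicate number (vertical axis) for each of the 10 genes, with 1 marker shape per pair and a line at 0. Tac1 is above 0 in all 4 pairs, from 0.13 to 1.63, and each of the other 9 genes has pairs on both sides of 0.

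Cck had a positive difference that came mainly from pairs 1 and 2. It was at 202, 306, 192 and 254 CPM in Hq-WT and at 265, 486, 201 and 252 CPM in Hq-mut 1 to 4, with log2 ratios of 0.39, 0.67, 0.06 and -0.01. Hq-mut 2 was the highest of all 16 libraries, and the fitted value was 0.28 (SE 0.12, adjusted p = 0.623, edgeR), or 0.15 without pair 2. Crh was at 5.36, 10.9, 6.21 and 9.78 CPM in Hq-WT and at 4.51, 7.78, 6.60 and 5.72 CPM in Hq-mut. It was lower in 3 of 4 pairs, with a log2 fold change of -0.37 (SE 0.15, adjusted p = 0.623, edgeR), and -0.23 without pair 4. Crh passed the threshold in neither line.

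Vip was at 48.9, 73.3, 49.9 and 67.7 CPM in Hq-WT and at 53.3, 60.8, 60.8 and 61.5 CPM in Hq-mut. The wild types spread more widely than the mutants, and the log2 fold change was -0.0040 (SE 0.10). Sst was at 134, 213, 150 and 131 CPM in Hq-WT and at 143, 238, 102 and 102 CPM in Hq-mut, higher in the mutant of pairs 1 and 2 and lower in that of pairs 3 and 4, with a log2 fold change of -0.16 (SE 0.12). Cort had ratios of -0.14, 0.33, -1.09 and -0.79, and a log2 fold change of -0.35 (SE 0.24). With 1 pair left out, Cort ran from -0.62 without pair 2 to -0.16 without pair 3, and Sst from -0.27 to -0.033 without the same pairs. For Crhbp the value was -0.18 (SE 0.13), and -0.34 (SE 0.08, adjusted p = 0.184, edgeR) without pair 2, where alone the mutant was higher. Pdyn was at 26.5, 32.96, 18.8 and 29.0 CPM in Hq-WT and at 22.7, 39.3, 33.8 and 24.8 CPM in Hq-mut, with the largest pair ratio, 0.85, in pair 3, where Tac2 also had its largest, 0.61. The log2 fold changes of Npy, Tac2 and Pdyn were 0.05 (SE 0.11), 0.13 (SE 0.19) and 0.15 (SE 0.16).

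**Figure D4:**
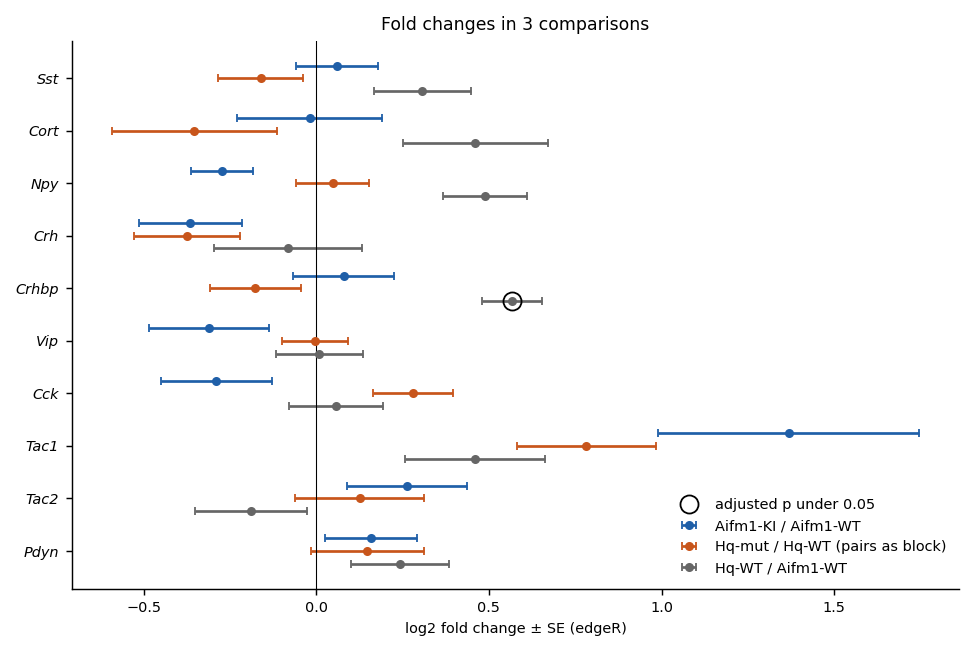
Log2 fold change (horizontal axis; points, with bars of 1 SE, from edgeR) of each of the 10 genes in Aifm1-KI against Aifm1-WT, Hq-mut against Hq-WT, and Hq-WT against Aifm1-WT; a circle marks an adjusted p under 0.05. The circled point is Crhbp between the wild types, at 0.57, and Tac1 has the highest value in both mutant lines, 1.37 and 0.78.

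Whether the mutations differed in effect was tested over all 16 libraries, as the Hq effect minus the knock-in effect. None of the 10 was called (edgeR, lowest adjusted p = 0.946), beside 0.0105% of 19129 genes, and 0 were at an unadjusted p under 0.05, beside 5.08%. With the replicate number as a block in the Hq line, 0 were called and 2 were at an unadjusted p under 0.05, Cck at 0.57 and Npy at 0.32 (adjusted p = 0.458 and 0.476, edgeR), as were 1994 of all genes in place of 972. DESeq2 and limma-voom called 0. The largest difference in this fit was that of Cck, 0.63 (SE 0.33, adjusted p = 0.946, edgeR), and 0.29 without Hq-mut 2. Cck was lower in 3 of 4 knock-in libraries than in every Aifm1-WT library. For Tac1 the difference was -0.52 (SE 0.48, adjusted p = 0.960, edgeR), or -0.15 without Aifm1-KI 2, so the direction of any difference was not resolved. The median of the 10 was -0.0693, beside -0.000241 over all genes.

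The stocks themselves were compared through their wild types, a comparison that shares its libraries with those above. Crhbp rose in Hq-WT relative to Aifm1-WT, the 1 call among the 10, beside 0.558% of 18106 genes. Crhbp (ENSMUSG00000021680, chromosome 13, 95431371 to 95444924, minus strand) was at 15.4, 16.9, 16.7 and 15.5 CPM in Aifm1-WT and at 23.96, 26.2, 23.0 and 22.8 CPM in Hq-WT. All 4 Hq-WT libraries were above all 4 Aifm1-WT libraries. Its log2 fold change was 0.57 (SE 0.09, adjusted p = 0.0201, edgeR), a ratio of 1.48 and the 35th smallest p of the table. The call was lost without Aifm1-WT 1, 2 or 3 or Hq-WT 1, where the adjusted p in edgeR was 0.0773, 0.0606, 0.0508 and 0.0549, and when all 16 libraries shared 1 fit (0.58, adjusted p = 0.247, edgeR). Crhbp in the mutant groups was at 12.9, 21.7, 14.7 and 18.03 CPM in Aifm1-KI and at 20.6, 32.5, 16.8 and 17.5 CPM in Hq-mut, so the stocks overlapped there.

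Npy was the other member whose wild-type groups did not overlap, and 2 of 10 members were higher without overlap beside 3.14% of all genes, with 0 lower beside 4.31%. It was at 43.8 to 52.9 CPM in Aifm1-WT and at 57.6, 85.4, 68.9 and 59.9 CPM in Hq-WT 1 to 4. Its fitted log2 fold change was 0.49 (SE 0.12, adjusted p = 0.121, edgeR), a ratio of 1.40. DESeq2 called it, at 0.50 (adjusted p = 0.0142), as did edgeR without the filter on low counts, at 0.51 (adjusted p = 0.0134). Over all genes these settings called 421 of 18106 and 560 of 36203, against 101. Without Hq-WT 2, the highest library, it was 0.36 (adjusted p = 0.0806, edgeR). In all, 8 of the 10 members were above 0 in this comparison, 3 at an unadjusted p under 0.05 (Crhbp, Npy and Tac1) beside 12.7% of genes, with a median of 0.275 beside 0.0046. Sst, Cort and Tac1 were at 0.31 (SE 0.14), 0.46 (SE 0.21) and 0.46 (SE 0.20), and Tac2 at -0.19 (SE 0.16). Without Hq-WT 2, Sst was at 0.13. Strain background and any other difference between the stocks cannot be told apart.

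The libraries numbered 2 of the Hq line were the highest of their groups for several peptides, in the wild type and in the mutant. As deviations from the gene's mean over the 16 libraries in log2 CPM, Hq-WT 2 and Hq-mut 2 were at 0.64 and 0.81 for Sst, 0.64 and 0.99 for Npy, and 0.58 and 0.89 for Cort. They were at 0.44 and 0.75 for Crhbp, 0.41 and 1.08 for Cck, and 0.36 and 0.61 for Pdyn. Vip and Crh were at 0.39 and 0.57 in Hq-WT 2 and at 0.13 and 0.11 in Hq-mut 2. Short transcripts in general were high in the same libraries. The median deviation of 203 protein-coding genes with under 1000 exonic bases was 0.46 in Hq-WT 2 and 0.82 in Hq-mut 2, and -0.18 to 0.01 in the other 14 libraries. For 8077 genes of over 4000 bases it was -0.07 and -0.16. For 4009 genes of 2000 to 4000 bases it was 0.14 and 0.21, and for 1260 genes of 1000 to 2000 bases 0.30 and 0.50. Sst, Npy and Cort have 721, 566 and 677 exonic bases. Cck, Crh, Tac2 and Crhbp have 1305, 1320, 1378 and 1800. Tac2 was at 0.09 in Hq-WT 2 and 0.33 in Hq-mut 2. Of the longer members, Pdyn has 2887 and Vip 3402, and Tac1, with 3399 bases, was at 0.04 in Hq-WT 2 and 0.84 in Hq-mut 2. The part of transcript length in the peptide values was not tested.

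**Figure D5:**
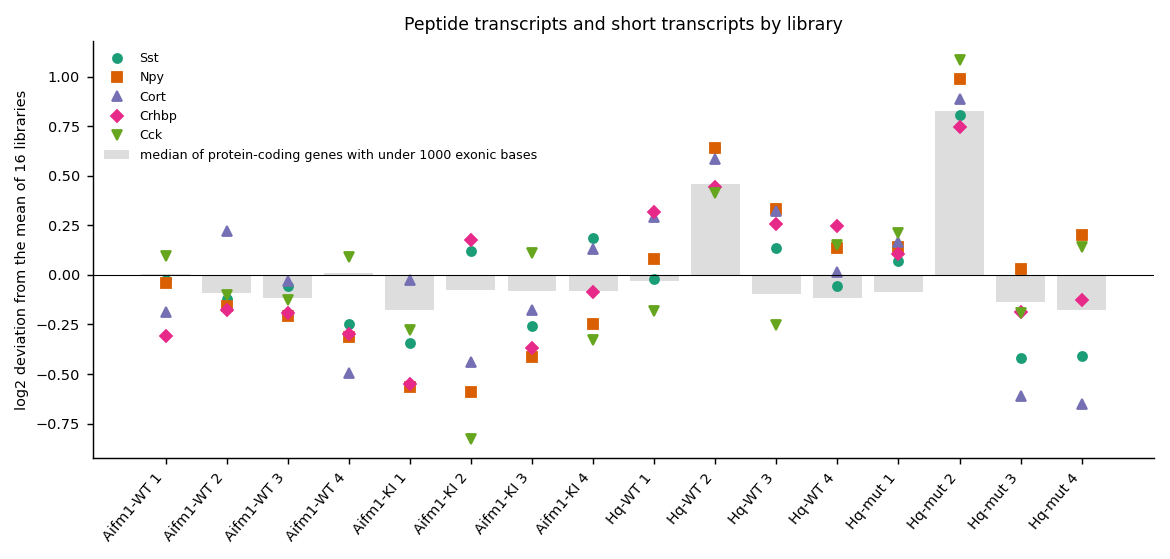
Log2 deviation from the mean of the 16 libraries (vertical axis) in each library for Sst, Npy, Cort, Crhbp and Cck (points), with the median of 203 protein-coding genes of under 1000 exonic bases (grey bars). In Hq-mut 2 the 5 genes are at 0.75 to 1.08 and the bar is at 0.82. Crhbp and Cck, with 1800 and 1305 exonic bases, are longer than the genes of the bar. The median of 1260 genes of 1000 to 2000 bases was 0.50 in Hq-mut 2.

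Receptors of these peptides were taken as a list of 19 genes, of which 15 passed the filter in each mutant line. In Aifm1-KI, 10 were above 0 and 5 below, with a median log2 fold change of 0.274, and 0 were called (edgeR), with 6 at an unadjusted p under 0.05, beside 11.4% of all genes. Of the 15, 2 were higher and 2 lower without overlap, beside 2.62% and 2.34% of all genes. The mean log2 CPM of the list was highest in Aifm1-KI 2 and 4, at 2.85 and 2.65, with 2.05 and 1.82 in Aifm1-KI 1 and 3 and 1.75 to 1.97 in Aifm1-WT. Oprk1, the kappa opioid receptor on which dynorphins act, was at 4.96, 6.27, 3.52 and 4.45 CPM in Aifm1-WT and at 12.8, 22.1, 3.40 and 21.5 CPM in Aifm1-KI. Aifm1-KI 3 was below every wild type and the other 3 were above all of them, with a log2 fold change of 1.67 (SE 0.45, adjusted p = 0.368, edgeR). Aifm1-KI 3 was also the knock-in library whose striatum markers lay within the wild-type range, a relation whose part was not tested.

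In Hq-mut, 6 receptors were above 0 and 9 below, with a median of -0.0812, 0 called and 1 at an unadjusted p under 0.05, beside 7.97% of all genes. That gene was Crhr2, a receptor for the urocortins and, more weakly, for the product of Crh. It was at 1.64, 3.13, 1.04 and 0.734 CPM in Hq-WT and at 0.468, 0.42, 0.678 and 0.584 CPM in Hq-mut, all 4 mutants below all 4 wild types, beside 0.974% of all genes. The log2 fold change was -1.52 (SE 0.41, adjusted p = 0.523, edgeR). Choroid plexus markers lay on the same side: 8 of 8 were below 0, with a median of -1.73 and 0 called. Their summed level was 5.70 to 365 CPM in Hq-mut and 10.8 to 5396 CPM in Hq-WT, the highest in Hq-WT 2, with at most 2 of the 8 at 0 in a library. By mean log2 CPM, the markers were at -1.21, 5.01, 1.78 and -0.85 in Hq-WT 1 to 4. The same markers were at -1.49, 1.26, 1.81 and -0.73 in Hq-mut 1 to 4. Their part in the Crhr2 values was not tested.

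Genes of peptide processing and dense-core vesicles, 14 of 14 tested, had medians close to 0 in both lines. In Aifm1-KI, 8 were above and 6 below 0, with a median of 0.0106, 0 called and 3 at an unadjusted p under 0.05, beside 11.4% of all genes. The smallest p was that of Cadps2, a priming factor for dense-core vesicles, at 73.4 to 99.5 CPM in Aifm1-WT and 102 to 107 CPM in Aifm1-KI. Its groups did not overlap, and the log2 fold change was 0.24 (SE 0.08, adjusted p = 0.375, edgeR). Of the 14, 2 were higher without overlap and 0 lower, beside 2.62% and 2.34% of all genes. In Hq-mut, 7 were above and 7 below 0, with a median of 0.0197, 0 called and 3 at an unadjusted p under 0.05, beside 7.97%. Pcsk2, a prohormone convertase, was at 427, 453, 344 and 422 CPM in Hq-WT and at 538, 474, 448 and 523 CPM in Hq-mut, higher in 4 of 4 pairs, as were 8.98% of all genes. Hq-mut 3 was below Hq-WT 2, so the groups overlapped, and the log2 fold change was 0.27 (SE 0.07, adjusted p = 0.523, edgeR).

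Other neuropeptide precursors, 9 of 14 tested, were above 0 for 7 in Aifm1-KI, with a median of 0.601, 0 called by edgeR and 5 at an unadjusted p under 0.05, beside 11.4% of all genes. The mean log2 CPM of the list was 1.59 and 1.44 in Aifm1-KI 2 and 4, 0.41 and 0.17 in Aifm1-KI 1 and 3, and 0.13 to 0.35 in Aifm1-WT. Nts, the neurotensin precursor, was at 0.429 to 1.41 CPM in Aifm1-WT and at 2.62, 12.9, 1.70 and 6.74 CPM in Aifm1-KI 1 to 4, without overlap, and had a log2 fold change of 2.62 (SE 0.62, adjusted p = 0.368, edgeR). Aifm1-KI 2 and 4 were the highest again. Of the 9 precursors tested, 2 were higher without overlap and 0 lower, beside 2.62% and 2.34% of all genes. The 8 hypothalamus markers summed to 1.34 to 16.1 CPM in Aifm1-KI and 1.72 to 3.68 CPM in Aifm1-WT. Sim1, one of them, was at 12.4 CPM in Aifm1-KI 2 and 2.89 CPM in Aifm1-KI 4, and at 0 to 0.17 CPM in the other 14 libraries. In Hq-mut, 4 precursors were above and 5 below 0, with a median of -0.0322, 0 called and 2 at an unadjusted p under 0.05, beside 7.97%. Penk, the enkephalin precursor made by striatal projection neurons among others, was at 21.3, 23.9, 40.3 and 29.3 CPM in Hq-WT and at 43.0, 27.4, 140 and 30.5 CPM in Hq-mut. The highest library, Hq-mut 3, was the one with the highest striatum markers, and the log2 fold change was 0.77 (SE 0.25, adjusted p = 0.576, edgeR).

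Interneuron identity genes, 27 of 27 tested, were above 0 for 22 in Aifm1-KI (median 0.138) and for 15 in Hq-mut (median 0.0216). None was called by edgeR in either line, and 8 and 4 were at an unadjusted p under 0.05, beside 11.4% and 7.97% of all genes. The mean log2 CPM of the list was 4.50, 5.12, 4.54 and 4.90 in Aifm1-KI 1 to 4 and 4.55 to 4.62 in Aifm1-WT. Aifm1-KI 2 and 4, with the high striatum markers, were thus above all wild types, and Aifm1-KI 1 and 3 below them. Maf, a transcription factor, is named because it had the smallest p of the list in both lines, and it was lower in both. It was at 46.2, 43.5, 46.0 and 39.8 CPM in Aifm1-WT and at 37.2, 35.4, 35.0 and 34.8 CPM in Aifm1-KI, with no overlap. Of the 27 genes, 1 was lower without overlap and 0 were higher, beside 2.34% and 2.62% of all genes. The log2 fold change of Maf was -0.30 (SE 0.06, adjusted p = 0.368, edgeR). In the Hq line, it was at 32.3, 38.1, 46.3 and 45.8 CPM in Hq-WT and at 24.8, 29.2, 41.6 and 36.1 CPM in Hq-mut, lower in 4 of 4 pairs, with a log2 fold change of -0.32 (SE 0.07, adjusted p = 0.523, edgeR). Between the wild types, 0 genes of the receptor, processing, precursor and identity lists were called. Of all marker lists, 1 gene was, the thalamus marker Lhx9, which fell in Hq-WT, from 0.768 to 0.926 CPM in Aifm1-WT to 0 to 0.151 CPM, with a log2 fold change of -3.21 (SE 0.43, adjusted p = 0.007776, edgeR). Its counts were 15 to 21 in Aifm1-WT and 0 to 3 in Hq-WT, so the size of this fold change rests on values close to 0.

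Across the 16 libraries, with each group centred on its mean in log2 CPM, some members moved together. The highest Pearson r among the members were 0.89 for Sst with Crhbp, 0.87 for Sst with Npy and 0.80 for Sst with Cort. These are descriptions over libraries that share depth and length effects, Hq library 2 among them. Against the striatum marker level, centred in the same way, r was 0.64 for Tac1, 0.32 for Pdyn, 0.315 for Tac2 and -0.70 for Cck. Npy, Cort and Vip were at -0.47, -0.41 and -0.38 with it, and Sst, Crh and Crhbp at -0.24, -0.22 and -0.16. Vip was at 0.66 with Cck, 0.63 with Crh, 0.30 with Npy, -0.06 with Sst and -0.49 with Tac1. The genes whose pattern was most like a member's, among 13499 candidates, were Ift22 and Mrpl52 for Sst (r = 0.95 for both), Adrb1 and Abracl for Vip (0.96 and 0.91) and Sharpin and Bola1 for Npy (0.97 and 0.95). For Cck they were Rnf220 and Sult4a1 (0.98 and 0.97), for Crh Hspb1 and Fam131c (0.91 for both), and for Crhbp Rae1 and Hddc2 (0.95 and 0.94). For Tac1 they were Cd24a and Pcdh8 (0.93 and 0.90), for Tac2 AC102132.2 and Npm1 (0.89 and 0.88), for Cort Adrm1 and Palm (0.91 for both), and for Pdyn Fam110a and Noa1 (0.89 and 0.85). Spearman's rho for these 20 genes ran from 0.76 to 0.98.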

How the data were processed

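RNA of mouse cerebral cortex was sequenced in 16 libraries, made with a KAPA mRNA kit, as 51-base single-end reads, per the labels' protocols. The authors deposited raw, unnormalized read counts for each Ensembl gene, made with STAR 2.6 on mm10, SAMtools and HTSeq, per the submitters' processing notes. Not given in the sources used here were the HTSeq version, the annotation and the strand setting. Symbols and positions came from GENCODE M21 on GRCm38, the assembly of mm10, for 55480 of 55573 IDs. 0 rows lacked a gene ID. Libraries of a group differed from each other by a chi-square statistic of 3.23 to 85.1 per gene over 24 pairs, so none was a copy.

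Comparisons were fitted over all genes with edgeR 4.0.16 in R 4.3.3 (TMM factors, filter at a count of 10 by group, quasi-likelihood F-test), and a gene was called where its Benjamini-Hochberg adjusted p was under 0.05. SE is the absolute log2 fold change over the square root of F. The Hq fit has the replicate number as a block, since deviations from the group mean of same-numbered libraries correlated at 0.356 to 0.493 in the 4 pairs. In the Aifm1-KI line they correlated at -0.020 to 0.082, so that fit has none. Alternatives were RLE size factors, no filter, DESeq2 1.42.0, limma-voom 3.58.1, the striatum marker level as a covariate, the block, and leaving out libraries. Leaving out Hq-WT 2 and Hq-mut 2 was chosen after seeing the data. Depth gives the CPM limits stated above, which hold for counting error alone, as the reads carry no molecular identifiers and are not independent molecules. Deviations by length used 13549 genes of mean CPM of at least 1 with 0.5 CPM added.

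The members and gene lists were chosen with earlier results of these data known. Named are the 10 members, Aifm1, called members of the other lists or, with none called, the smallest p in each mutant line, 3 striatum markers, and for each member the 2 genes of highest r. Sim1 and the pattern in Hq library 2 were chosen after their values were seen. No protein sequences were used here.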

Additional observations from a re-analysis of the deposited data

Results flagged for a closer look

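The 10 genes were screened in each of the 4 groups of 4 libraries for a lone library far from the other 3, a screen that by chance marks about 1 group in 20. It marked 2 of the 40 combinations, both in Hq-mut. Npy was at 109 CPM in Hq-mut 2, above the 55.7 to 62.7 CPM of the other 3. The same library was also the highest of its group for Sst, Cck, Crh, Crhbp, Tac2, Cort and Pdyn. It had the highest median deviation of short transcripts, and the part of length in the Npy value was not tested. Vip was at 53.3 CPM in Hq-mut 1, below the 60.8 to 61.5 CPM of the other 3, a gap that is within the range of Hq-WT, 48.9 to 73.3 CPM.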

How the results depend on the processing

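No member was called in Aifm1-KI or for the difference of effects under any alternative run. In Hq-mut 1 member, Tac1, was called without the filter and with DESeq2, against 0 as reported. Between the wild types 2 (Crhbp and Npy) were called under those settings, 0 with all 16 libraries in 1 fit, and 0 to 1 with a library left out, against 1. Over all genes, the calls in Aifm1-KI went from 0 to 82 with DESeq2 and 46 without Aifm1-KI 3. In Hq-mut they went from 3 to 368 without the filter, 33 with DESeq2, 1 with the covariate and 1 to 4 without a pair. Between the wild types they went from 101 to 560, 421, 61 and 32 to 231, and for the difference from 2 to 5 with DESeq2 and 1 with limma-voom. The cause was not tested.

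For the pairing, the fit without the replicate block gave 0 members called in Hq-mut and 0.84 for Tac1 (adjusted p = 1, edgeR). With the block, Aifm1-KI gave 0 called and 1.24 for Tac1 (adjusted p = 0.347, edgeR), the wild types 1 called and the difference 0. The block changed no call, and reversed Vip between the wild types (-0.014) and Pdyn in the difference (-0.0096).

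Of 150 log2 fold changes of members under the alternatives in Aifm1-KI, 131 kept their direction and side of the threshold and 19 reversed. The numbers were 87 and 11 of 100 in Hq-mut, 136 and 7 of 150 between the wild types, and 214 and 26 of 240 for the difference. With the striatum covariate in Aifm1-KI, Sst was -0.24, Vip 0.14, Cck 0.11, Crhbp -0.30, Tac1 -0.049, Tac2 -0.15, Cort 0.0044 and Pdyn -0.17. Without Aifm1-KI 2 and 4, Sst was -0.20, Crhbp -0.23, Tac2 -0.042, Cort 0.0014 and Pdyn -0.015. In Hq-mut, Vip was 0.0019 with RLE factors, 0.0035 without the filter and 0.0024 with DESeq2, and with the covariate Sst was 0.011, Tac2 -0.0021 and Pdyn -0.065. For the difference, Crh was 0.0017 without the filter and 0.0035 with limma-voom, where Pdyn was -0.033. Without Aifm1-KI 2 and 4 and Hq-mut 3, it was 0.23 for Sst, 0.19 for Crhbp, 0.22 for Tac1 and 0.16 for Tac2. Without Hq-WT 2 and Hq-mut 2, it was 0.010 for Crh and -0.038 for Pdyn. Between the wild types, Vip was -0.0057 with limma-voom. Leaving out 1 library gave both signs for Sst (-0.037 to 0.14), Crhbp (-0.076 to 0.18) and Cort (-0.15 to 0.13) in Aifm1-KI. It did so for Vip (-0.10 to 0.088), Npy (-0.052 to 0.16), Tac2 (-0.011 to 0.33) and Pdyn (-0.062 to 0.28) in Hq-mut, and for Vip (-0.093 to 0.10), Cck (-0.076 to 0.15) and Crh (-0.25 to 0.079) between the wild types. For the difference it did so for Sst (-0.50 to 0.028), Crh (-0.17 to 0.15), Tac2 (-0.26 to 0.086) and Pdyn (-0.15 to 0.16). At the lowest depth, Cort rests on 35 counts.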
